A study of Mus musculus with 8 samples.

Results

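The receptors through which type 3 innate lymphoid cells are kept alive and switched on were followed as transcripts in 8 RNA libraries. They are 10 genes, namely the receptor chains Il7r, Il2rg, Il2ra, Il2rb, Il23r, Il12rb1, Il1r1 and Il18r1, the receptor tyrosine kinase Kit and the TNF family receptor Ltbr. They were taken by symbol from a list that was chosen with earlier results of these data known. All 10 were found among the 27179 genes of the deposited expression table. The cells were lymphoid tissue inducer (LTi) cells, a type of innate lymphoid cell that starts the building of lymph nodes and Peyer's patches. They had been sorted from C57BL/6 mice by surface CD127 and CCR6 and by the absence of lineage markers, KLRG1, NK1.1 and NKp46.

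Of the 4 groups, 2 came from small intestinal lamina propria (LP), the connective tissue under the gut epithelium, and 2 from Peyer's patches (PP), the lymphoid organs of the gut wall. Each tissue was sampled from Tcf7fl/fl mice that carry a Cre transgene, called knockout-labelled here, and from Tcf7+/+ mice, with 2 libraries per group. Tcf7 encodes TCF-1, a transcription factor of the Wnt pathway, and deletion is directed to the cells in which the Cre recombinase is or has been made. The labels name no treatment or age, and nothing says whether the 2 libraries of a group came from separate mice, so p-values measure only the spread between these libraries. CD127 is the protein of Il7r, so cells without that protein at the surface were left out by the sort.

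Cytokine receptors of lymphocytes are built from chains that are shared between ligands. The gamma chain Il2rg joins Il7r to form the IL-7 receptor, which supports the survival of innate lymphoid cells, and joins Il2rb, with or without Il2ra, to form the receptors for IL-2 and IL-15. Il23r pairs with Il12rb1 to sense IL-23, and Il1r1 senses IL-1, both of them signals that lead type 3 innate lymphoid cells to make IL-22 and IL-17. Kit is the receptor for stem cell factor and a surface marker of LTi cells, and Ltbr is the receptor for the lymphotoxin that LTi cells present to stromal cells.

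Start-site windows from RefSeq (GRCm38.p6) were found for 8 of the 10 genes, 12 windows in all of 250 bases before to 50 bases after a start site, and none for Il2rb and Il12rb1. They were searched on both strands for short motifs, among them the TCF/LEF core CTTTGA (the factor family of TCF-1), the STAT site TTCNNNGAA (the family that acts below these receptors) and the RUNX site TGTGGT. Among all 32851 windows of that length in the table, 16% held the TCF/LEF core, 8.30% the STAT site and 16.8% the RUNX site. The TCF/LEF core was in 0 of the 12 windows. The RUNX letters were in the windows of Il7r, Il2rg and Il18r1. The windows with STAT letters are shown over their 250 bases before the start site, because STAT proteins act below most of these receptors. Capitals mark the matches, and each gene's strand is read 5′ to 3′. Il7r (chr15:9529877-9530126, minus strand) held the STAT letters at position -142 from the start site, and Il18r1 (chr1:40465756-40466005, plus strand) held them at -219 and -152. A match describes the letters and is not a measured binding site, and no match says only that the letters are not in that window.
Il7r: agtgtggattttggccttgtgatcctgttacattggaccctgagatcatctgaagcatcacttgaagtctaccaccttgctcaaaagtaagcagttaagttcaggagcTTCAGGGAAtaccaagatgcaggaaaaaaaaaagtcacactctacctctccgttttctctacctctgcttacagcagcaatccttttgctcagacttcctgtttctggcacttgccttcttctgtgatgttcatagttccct
Il18r1: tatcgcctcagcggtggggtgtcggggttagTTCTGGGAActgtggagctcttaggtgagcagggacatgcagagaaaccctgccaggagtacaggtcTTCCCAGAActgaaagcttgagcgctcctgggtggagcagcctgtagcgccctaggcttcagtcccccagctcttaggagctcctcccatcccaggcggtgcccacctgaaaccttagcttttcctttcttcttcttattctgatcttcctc

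Levels are given as RPKM, read counts scaled by gene length and library size, so that genes can be set side by side. The value of a single read put the depth behind them at about 38400000 to 44400000 reads per library. The 12 LTi and type 3 innate lymphoid markers, Ccr6 among them, summed to 7277 to 7346 RPKM in knockout-labelled LP, 8240 to 8428 RPKM in Tcf7+/+ LP, 6934 to 7145 RPKM in knockout-labelled PP and 6383 to 7336 RPKM in Tcf7+/+ PP, and each reached 1 RPKM in at least 1 library. Tcf7, the targeted gene, was not low in the knockout-labelled libraries: it had 237 and 215 RPKM in knockout-labelled LP against 229 and 246 RPKM in Tcf7+/+ LP, and 355 and 337 RPKM in knockout-labelled PP against 243 and 85.4 RPKM in Tcf7+/+ PP. A gene-level value does not show whether a part of the gene was deleted, so the genotype of every library rests on its label. The log2 difference of Tcf7 was -0.07 ± 0.48 (SE) in LP and 1.26 ± 0.48 in PP, with limma adjusted p of 1 and 0.365. Both knockout-labelled PP libraries stood apart from the other 6 by the share of mitochondrially encoded RNA, 13.4% to 13.6% against 3.06% to 5.06%. Immunoglobulin genes took 10.3% to 17.1% of the summed RPKM in LP and 2.81% to 6.38% in PP.

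All 10 receptors were transcribed in this material, over a wide span of levels. The mean over the 8 libraries was highest for Il2rb at 816 RPKM and Il2rg at 762 RPKM, above 99.3% and 99.2% of the 10541 genes that passed the low-value filter. Il7r followed at 328 RPKM, then Kit at 181 RPKM, Il23r at 125 RPKM, Il1r1 at 86.4 RPKM, Il2ra at 65.7 RPKM, Il12rb1 at 38.4 RPKM and Il18r1 at 23.1 RPKM, and Ltbr was lowest at 6.04 RPKM, above 31.4% of the genes. Il2rb was the highest member in both LP groups and Il2rg in both PP groups. Ltbr took place 10 in all 4 groups and Il23r place 5. These places are by group mean, and many neighbours could not be ordered by their libraries. The 2 libraries of a gene overlapped those of the gene next below it for 6 of 9 neighbouring pairs in knockout-labelled LP, 3 of 9 in Tcf7+/+ LP, 4 of 9 in knockout-labelled PP and 5 of 9 in Tcf7+/+ PP. Ltbr overlapped the gene above it in both knockout-labelled groups, and Il23r overlapped a neighbour in every group but Tcf7+/+ LP. The plot of levels by library shows every value.

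**Figure D1:**
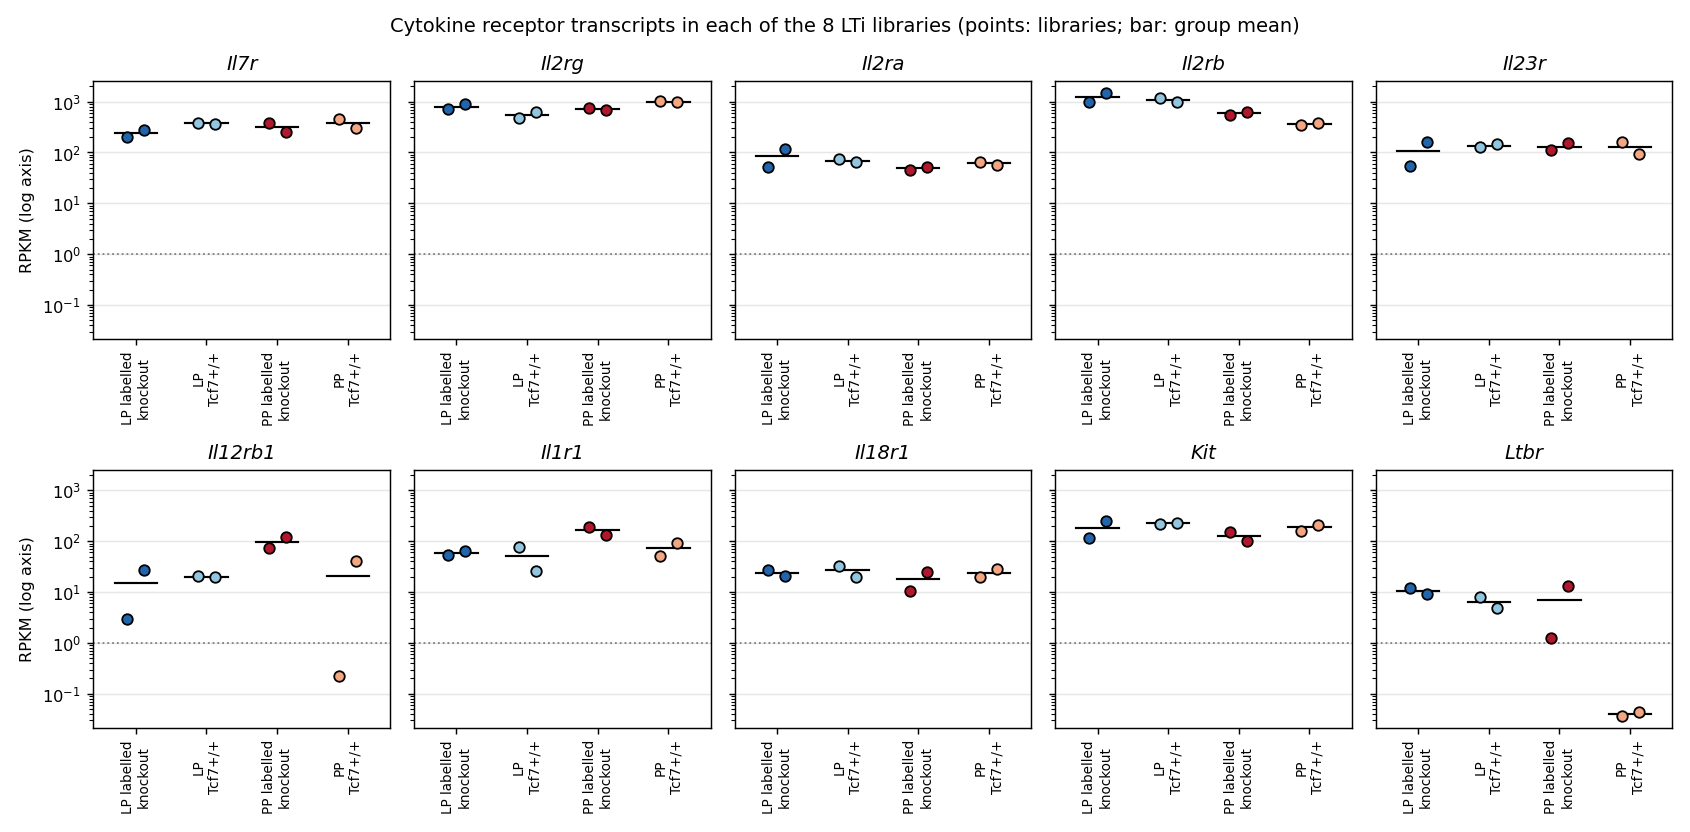
RPKM on a log axis of the 10 receptor genes in each of the 8 libraries, by tissue and genotype label, with a point per library, a bar at the group mean and a dotted line at 1 RPKM. All 4 LP libraries of Il2rb, 970.2 to 1495 RPKM, lie above all 4 PP libraries, 350.5 to 635 RPKM.

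Differences were tested with limma on log2(RPKM + 1), which understates the fold changes of low genes. The 10541 genes that reached 1 RPKM in 2 or more libraries entered, all 10 members among them. Their p-values were adjusted by Benjamini-Hochberg over this whole set with a threshold of 0.05. Over these genes the 2 libraries of a group correlated at a Pearson r of 0.679 in knockout-labelled LP and 0.745 in Tcf7+/+ LP. In PP it was 0.655 in knockout-labelled and 0.577 in Tcf7+/+ libraries. The first knockout-labelled PP library correlated with the 2 Tcf7+/+ PP libraries at 0.596 and 0.594, so those 2 were no more alike than libraries of different genotype. The same held for the 2 knockout-labelled LP libraries, which correlated with the Tcf7+/+ LP libraries at 0.690 to 0.721, above their own 0.679. In knockout-labelled PP and Tcf7+/+ LP the replicates were closer to each other than to the other genotype of their tissue. Genotype was compared within each tissue (knockout-labelled minus Tcf7+/+), tissue within each genotype (LP minus PP), and both effects were also averaged over the other factor. Il2rb was the only member to pass in any of the 7 comparisons, and it passed in 2 of them. For genotype, 0 of 10 members passed in PP, where 0.36% of all genes did, 0 of 10 in LP, where 0.0285% did, and 0 of 10 for the average effect, where 0.00949% did. For tissue, 1 of 10 passed in Tcf7+/+ libraries (2.13% of all genes), 0 of 10 in knockout-labelled libraries (2% of all genes) and 1 of 10 for the average effect (4.33% of all genes). For the interaction, which sets the LP genotype effect against the PP one, 0 of 10 passed against 0.0285% of all genes. At an unadjusted p under 0.05, limma gave 1 of 10 members for genotype in PP (11.4% of all genes), 1 for genotype in LP (5.27%), 0 for average genotype (6.81%) and 1 for the interaction (8.75%). It gave 2 for tissue in Tcf7+/+ libraries (17%), 1 for tissue in knockout-labelled libraries (14.7%) and 1 for average tissue (19.4%). With 10 members, 1 or 2 such genes are close to the share of all genes.

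The median difference of the members was set beside that of all genes. It was 0.03 against -0.06 for genotype in LP and -0.08 against 0.16 for genotype in PP, on the log2 scale. For tissue it was 0.16 against 0.09 in Tcf7+/+ libraries and 0.32 against -0.29 in knockout-labelled libraries. Rescaling by the median of ratios moved the median of all genes by over 0.1, to -0.07 for genotype in PP, 0.05 for genotype in LP, -0.04 for tissue in Tcf7+/+ and 0.01 for tissue in knockout-labelled libraries. On that scale the members' medians were -0.65, 0.25, -0.17 and 0.77, so the sign for tissue in Tcf7+/+ libraries depends on the scaling. That for genotype in PP does too, since rescaling without immunoglobulin and mitochondrial genes gave 0.05. Without any test, both knockout-labelled libraries lay on the same side of both Tcf7+/+ libraries for 7 of 10 members in PP, where 37.5% of all genes did. Il2rb, Il12rb1, Il1r1 and Ltbr were the higher ones there, and Il2rg, Il2ra and Kit the lower ones. The count was 3 of 10 in LP, where 35.6% of all genes did. Between tissues it was 4 of 10 in Tcf7+/+ libraries (47.4% of all genes) and 4 of 10 in knockout-labelled libraries (45.6% of all genes). These counts and the genes named use the deposited values and were not repeated after rescaling. The median-of-ratios factors were 1.43 and 1.41 for knockout-labelled PP and 0.941 and 0.957 for Tcf7+/+ PP. Which members stand apart in PP can therefore depend on the scaling.

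**Figure D2:**
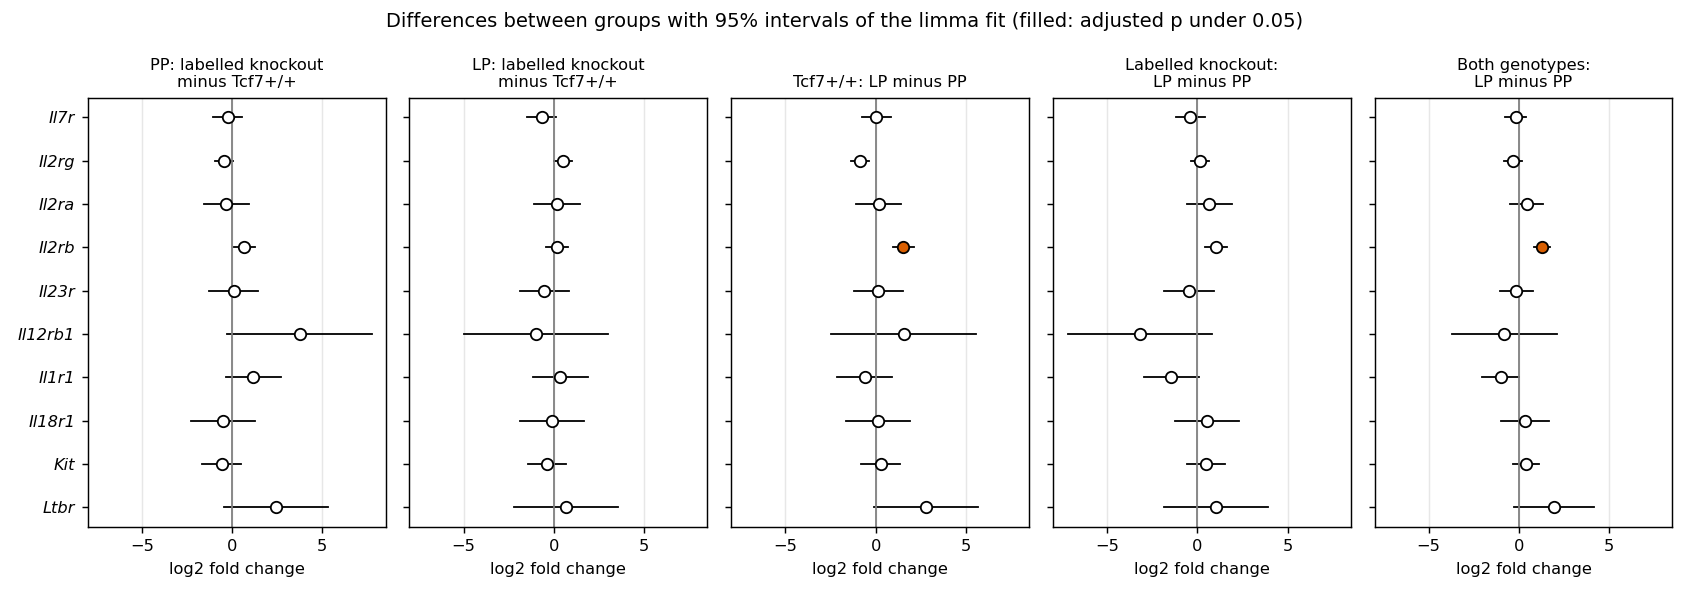
Log2 fold changes of the 10 receptor genes in 5 comparisons, with points for the limma estimates, lines for their 95% intervals and filled points for an adjusted p under 0.05. Only Il2rb is filled, at 1.54 for LP minus PP in Tcf7+/+ libraries and at 1.29 over both genotypes, and the intervals of Il12rb1 and Ltbr are the widest.

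Il2rb, the beta chain of the IL-2 and IL-15 receptors (Entrez Gene 16185, chromosome 15, 78479256 to 78511621 on GRCm38.p6), was higher in LP than in PP. It had 970.2 and 1495 RPKM in knockout-labelled LP and 1171 and 980.4 RPKM in Tcf7+/+ LP, against 543 and 635 RPKM in knockout-labelled PP and 350.5 and 383 RPKM in Tcf7+/+ PP. All 4 LP libraries stood above all 4 PP libraries. The group means were 1232 ± 371 RPKM in knockout-labelled LP, 1076 ± 135 RPKM in Tcf7+/+ LP, 589 ± 65.3 RPKM in knockout-labelled PP and 367 ± 23.3 RPKM in Tcf7+/+ PP (SD, n = 2 each). In bulk RNA, more cells with the transcript and more transcript per cell cannot be told apart.

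For LP minus PP, the log2 fold change of Il2rb was 1.29 ± 0.20 (SE) over both genotypes, with a limma adjusted p of 0.00568, and 14 of 15 alternative fits kept the call. The exception was the fit whose prior variance had no mean trend, with an adjusted p of 0.216. In Tcf7+/+ libraries alone the log2 fold change was 1.54 ± 0.25 (adjusted p 0.0373), with a 95% interval of 0.95 to 2.14. That call was lost in 10 of 16 alternatives, among them leaving out any of the 4 PP libraries (adjusted p 0.0833 to 0.102) or either Tcf7+/+ LP library (0.192 and 0.241). In knockout-labelled libraries it was 1.04 ± 0.25 (adjusted p 0.109), and 1.496 after median-of-ratios rescaling, where it passed (adjusted p 0.0280). The interaction was -0.51 ± 0.36 (adjusted p 0.748), so a difference of the tissue effect between genotypes did not pass; it was 0.29 after median-of-ratios rescaling, with the other sign. For genotype in PP the log2 fold change was 0.68 ± 0.25 with an adjusted p of 0.350, and 0.10 after median-of-ratios rescaling (adjusted p 0.901). In LP it was 0.17 ± 0.25, and 0.39 after that rescaling.

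Il2rb is also a gene of natural killer cells and type 1 innate lymphoid cells, and markers of those cells moved with tissue too. The 7 markers summed to 43.9 to 127 RPKM in knockout-labelled LP and 36.03 to 45.999 RPKM in Tcf7+/+ LP, against 0.166 to 0.231 RPKM in knockout-labelled PP and 0.232 to 0.415 RPKM in Tcf7+/+ PP. Gzmb, the granzyme B gene, made up most of the sum in knockout-labelled LP. The other 6 summed to 0.0510 to 6.997 RPKM in knockout-labelled LP and 15.8 to 21.1 RPKM in Tcf7+/+ LP, with at most 0.0812 RPKM in PP. Of these, Tbx21 had 9.85 and 11.3 RPKM in Tcf7+/+ LP, 0.0280 and 2.68 RPKM in knockout-labelled LP and at most 0.0488 RPKM in PP. Prf1 reached 1 RPKM only in the first Tcf7+/+ LP library (11.3 RPKM) and Klrd1 only in the second (4.51 RPKM). Itga2 did so only in the second knockout-labelled LP library (4.30 RPKM). Eomes and Klra8, and Ncr1, which encodes the NKp46 protein that the sort gated out, were at 0 in all 8 libraries. The genes of the other proteins gated out, NK1.1 and KLRG1, were not. Klrb1c, the NK1.1 gene, had 32.8 RPKM in the first Tcf7+/+ PP and 8.42 RPKM in the second knockout-labelled PP library. It had 0.187 and 0.120 RPKM in the other PP libraries and at most 0.178 RPKM in LP, so it was not higher in LP. Klrg1 reached 1 RPKM only in the first Tcf7+/+ LP library (10.7 RPKM). The part of such cells in the Il2rb difference was not tested beyond these values.

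Il2rg, the gamma chain shared by the receptors for IL-2, IL-7, IL-15 and other cytokines (Entrez Gene 16186, chromosome X, 101264385 to 101268255), had the opposite order of tissues in Tcf7+/+ libraries. It had 487 and 623 RPKM in Tcf7+/+ LP against 1007 and 964 RPKM in Tcf7+/+ PP, 2 groups that do not overlap. The log2 fold change was -0.84 ± 0.21 with an adjusted p of 0.105, and -1.18 after median-of-ratios rescaling, where it passed (adjusted p 0.0337). In knockout-labelled libraries it had 702 and 890.2 RPKM in LP against 737 and 688 RPKM in PP, which overlap.

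By genotype, Il2rg lay on opposite sides in the 2 tissues: both knockout-labelled libraries were above both Tcf7+/+ libraries in LP, with a log2 difference of 0.52 ± 0.21, and below both in PP, at -0.47 ± 0.21. Neither passed (adjusted p 0.902 and 0.487), and after median-of-ratios rescaling the PP difference was -1.05 (adjusted p 0.0741). The interaction was 0.99 ± 0.30 with an unadjusted p of 0.0128 and an adjusted p of 0.367, and it kept its sign in every alternative run, at 0.81 to 1.79. T cell markers, a list of 11 genes, summed to 272 to 463 RPKM in knockout-labelled LP and 357 to 430.0 RPKM in Tcf7+/+ LP, against 732 to 797 RPKM in knockout-labelled PP and 974 to 999 RPKM in Tcf7+/+ PP. Trbc2 (112 to 497 RPKM over the 8 libraries), Lat (99.0 to 342 RPKM) and Trbc1 (32.9 to 158 RPKM) made up most of that sum in every library. The range was 0.0574 to 31.6 RPKM for Cd3d, 0.179 to 56.3 RPKM for Cd3e and 0.274 to 111 RPKM for Cd3g. T cells carry Il2rg as well, and their part in the Il2rg values was not tested.

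Within a library, the ratio of Il2rb to Il2rg does not depend on how libraries are scaled. It was 1.38 to 1.68 in knockout-labelled LP and 1.57 to 2.40 in Tcf7+/+ LP, against 0.737 to 0.924 in knockout-labelled PP and 0.348 to 0.398 in Tcf7+/+ PP. The beta chain thus exceeded the gamma chain in all 4 LP libraries and fell short of it in all 4 PP libraries. The knockout-labelled PP libraries lay between the Tcf7+/+ PP libraries and LP. The ratio of Il7r to Il2rg had another order, with 0.293 to 0.307 in knockout-labelled LP, 0.592 to 0.791 in Tcf7+/+ LP, 0.366 to 0.524 in knockout-labelled PP and 0.312 to 0.451 in Tcf7+/+ PP. These ratios were not tested.

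**Figure D3:**
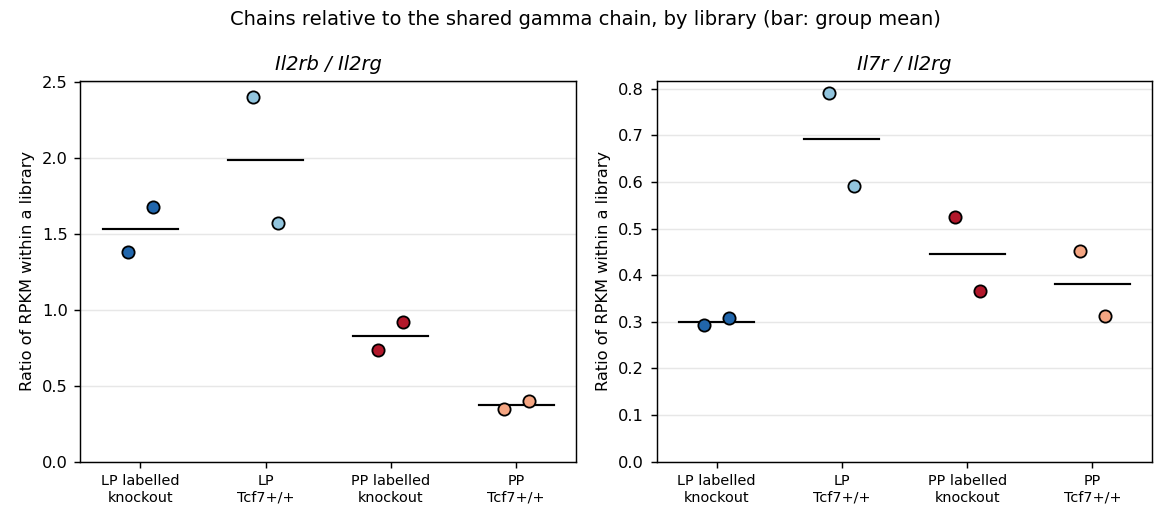
Ratios of RPKM within a library for Il2rb over Il2rg (left) and Il7r over Il2rg (right), with a point per library and a bar at the group mean. The Il2rb ratio is above 1.38 in every LP library and at most 0.924 in every PP library, while the Il7r ratio is highest in the 2 Tcf7+/+ LP libraries.

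Il2ra, the alpha chain that raises the affinity for IL-2 (Entrez Gene 16184, chromosome 2, 11642792 to 11693194), was below both partners in every library. It had 51.9 and 116 RPKM in knockout-labelled LP and 74.2 and 63.8 RPKM in Tcf7+/+ LP, against 45.6 and 51.6 RPKM in knockout-labelled PP and 66.2 and 55.9 RPKM in Tcf7+/+ PP. Only the second knockout-labelled LP library stood out, at 116 RPKM. For genotype in PP the log2 difference was -0.32 with a 95% interval of -1.58 to 0.94, and in LP 0.17 with an interval of -1.08 to 1.43, so a 2-fold lower level in PP, and a 2-fold difference either way in LP, lie within the intervals. Regulatory T cells carry much Il2ra, and 4 of their markers summed to 164 to 252 RPKM in knockout-labelled LP and 246 to 253 RPKM in Tcf7+/+ LP, against 115 to 155 RPKM in knockout-labelled PP and 139 to 201.2 RPKM in Tcf7+/+ PP. Foxp3, which defines those cells, was at 0 in all 8 libraries. Il15ra, the chain that presents IL-15, reached 1 RPKM in 1 of 8 libraries, the first knockout-labelled PP library at 17.2 RPKM.

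Il7r, the IL-7 receptor chain (Entrez Gene 16197, chromosome 15, 9506159 to 9529941), was high in every library, as in cells gated on its protein. It had 206 and 274 RPKM in knockout-labelled LP against 385 and 369 RPKM in Tcf7+/+ LP, and the groups do not overlap. In PP it had 386 and 251.5 RPKM in knockout-labelled libraries against 454 and 301 RPKM in Tcf7+/+ libraries, which overlap. The highest library exceeded the lowest by 2.21-fold. The log2 difference between genotypes was -0.67 ± 0.34 in LP (adjusted p 1), -0.25 ± 0.34 in PP (adjusted p 0.835) and -0.46 ± 0.26 on average (adjusted p 0.742). Between tissues it was 0.03 ± 0.34 in Tcf7+/+ libraries, with a 95% interval of -0.77 to 0.83. Crlf2, which joins Il7r in the receptor for TSLP, was at 10.4 to 63.8 RPKM and above 1 RPKM in all 8 libraries.

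Il23r, the specific chain of the IL-23 receptor (Entrez Gene 209590, chromosome 6, 67422932 to 67491855), was present in every library, at 54.8 to 161 RPKM. It had 54.8 and 158 RPKM in knockout-labelled LP and 126 and 145 RPKM in Tcf7+/+ LP, against 111 and 151 RPKM in knockout-labelled PP and 161 and 91.4 RPKM in Tcf7+/+ PP. The groups overlapped in both tissues and both genotypes. The log2 difference between genotypes was -0.53 ± 0.58 in LP and 0.09 ± 0.58 in PP, with 95% intervals of -1.90 to 0.84 and -1.28 to 1.46.

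Its partner Il12rb1, the chain shared with the IL-12 receptor (Entrez Gene 16161, chromosome 8, 70808360 to 70823542), varied most of all members. It had 73.5 and 122 RPKM in knockout-labelled PP, against 0.223 and 41.0 RPKM in Tcf7+/+ PP, where the first library held an estimated 25.0 reads and the second 5236. In LP it had 3.02 and 27.1 RPKM in knockout-labelled libraries against 20.3 and 20.003 RPKM in Tcf7+/+ libraries. Both knockout-labelled PP libraries were thus above the other 6, and the replicates of knockout-labelled LP and of Tcf7+/+ PP lay far apart.

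For genotype in PP the log2 difference of Il12rb1 was 3.74 ± 1.70 (adjusted p 0.494). It was 1.19 without the first Tcf7+/+ PP library and 6.29 without the second, and neither passed (adjusted p 0.709 and 0.118). The replicates of Tcf7+/+ PP differed by 5.10 on the log2 scale, against a median of 1.34 for the 200 genes nearest in level. The libraries high in Il12rb1 are the ones with the raised mitochondrial share, and they also held the most epithelial marker RNA, 675 to 791 RPKM for 16 genes in knockout-labelled PP against 191 to 337 RPKM in Tcf7+/+ PP. Their part in the result was not tested.

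The balance of the IL-23 pair varied between libraries. Il23r exceeded Il12rb1 by 5.85 to 18.2 times in knockout-labelled LP and 6.22 to 7.23 times in Tcf7+/+ LP, against 1.23 to 1.51 times in knockout-labelled PP and 2.23 times in the 1 Tcf7+/+ PP library with Il12rb1 above 1 RPKM. The other Tcf7+/+ PP library had 161 RPKM of Il23r beside 0.223 RPKM of Il12rb1. Il12rb2, which completes the IL-12 receptor with Il12rb1 and lies 46.6 kb from Il23r on chromosome 6, reached 1 RPKM in 1 of 8 libraries, the second Tcf7+/+ LP library at 8.39 RPKM. The plot of chains and partners sets these pairs side by side.

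**Figure D4:**
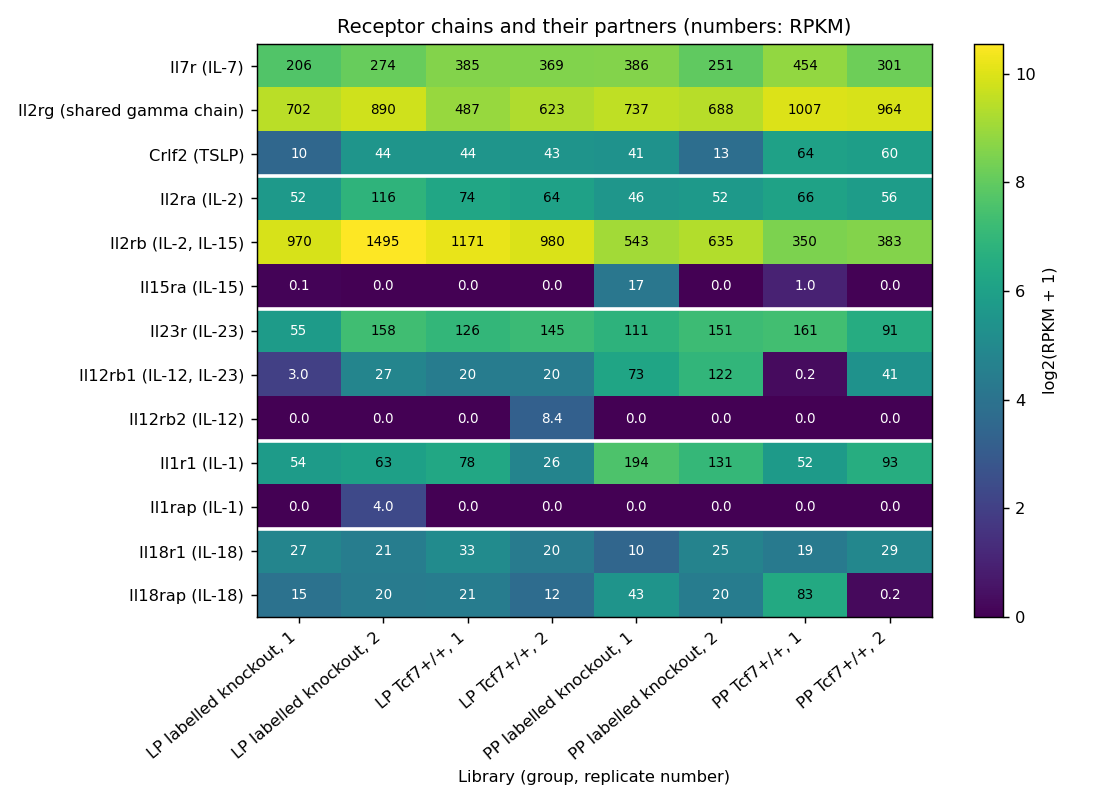
Levels of the receptor chains and of the partners they signal with, as log2(RPKM + 1) by colour and RPKM by number, with genes in rows grouped by ligand and the 8 libraries in columns. The partners Il15ra, Il12rb2 and Il1rap reach 1 RPKM in 1 library each, while Crlf2 does in all 8 and Il18rap in 7.

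Il1r1, the signalling receptor for IL-1 (Entrez Gene 16177, chromosome 1, 40222480 to 40316201), was highest in knockout-labelled PP. It had 194 and 131 RPKM there against 52.0 and 92.9 RPKM in Tcf7+/+ PP, and 54.0 and 63.2 RPKM in knockout-labelled LP against 78.2 and 25.9 RPKM in Tcf7+/+ LP. Both knockout-labelled PP libraries were above the other 6. No comparison passed: the log2 difference was 1.18 ± 0.64 for genotype in PP (adjusted p 0.621), -1.43 ± 0.64 for tissue in knockout-labelled libraries (adjusted p 0.369) and -1.02 ± 0.47 for tissue on average (adjusted p 0.267). Fibroblasts and endothelium also carry Il1r1, and 12 of their markers summed to 83.5 to 145 RPKM in knockout-labelled PP and 78.3 to 205 RPKM in Tcf7+/+ PP, ranges that overlap. Only Pdgfrb and Pecam1 among them reached 1 RPKM in any library, the other 10 were below it in all 8, and Vcam1 was at 0. As with Il12rb1, the same 2 libraries have the high mitochondrial share, and its part was not tested.

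Il18r1, the ligand-binding chain for IL-18 (Entrez Gene 16182, chromosome 1, 40465552 to 40500854), was among the lower members, at 10.3 to 33.2 RPKM over the 8 libraries. It had 27.2 and 21.1 RPKM in knockout-labelled LP and 33.2 and 20.1 RPKM in Tcf7+/+ LP, against 10.3 and 25.1 RPKM in knockout-labelled PP and 19.4 and 28.7 RPKM in Tcf7+/+ PP. The groups overlapped in both tissues and both genotypes. The genotype difference had 95% intervals of -1.88 to 1.67 in LP and -2.30 to 1.26 in PP on the log2 scale, so changes of 2-fold were not detectable. Its accessory chain Il18rap was at 14.9 and 20.02 RPKM in knockout-labelled LP, 20.7 and 12.4 RPKM in Tcf7+/+ LP, 42.9 and 20.5 RPKM in knockout-labelled PP, and 83.2 and 0.208 RPKM in Tcf7+/+ PP. Il1rap, the accessory chain through which Il1r1 signals, reached 1 RPKM in 1 of 8 libraries, at 3.97 RPKM in the second knockout-labelled LP library.

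Il1r1 and Il18r1 lie in a cluster of 6 IL-1 family receptor genes that spans 467 kb of chromosome 1. Of the other 4 genes, Il1r2 and Il1rl2 passed for the average tissue effect. Il1r2, a decoy receptor that binds IL-1 without signalling, had 78.7 and 366 RPKM in knockout-labelled LP and 44.6 and 60.2 RPKM in Tcf7+/+ LP, against 26.0 and 0.4998 RPKM in knockout-labelled PP and 0.420 and 0.553 RPKM in Tcf7+/+ PP. Its average LP minus PP difference was 4.95 ± 0.96 (adjusted p 0.0169), lost in 4 of 15 alternatives, 3 of them without the second knockout-labelled LP library or either Tcf7+/+ LP library (adjusted p 0.0652 to 0.0777). Il1rl2, a receptor for IL-36, had 9.58 to 20.1 RPKM over the 4 LP libraries and at most 0.0658 RPKM in PP. Its difference was 3.78 ± 0.86 (adjusted p 0.0349), kept in 5 of 15 alternatives. Leaving out any 1 of the 8 libraries ended the call (adjusted p 0.0590 to 0.0925). Il1rl1, the IL-33 receptor of type 2 innate lymphoid cells that lies between Il1rl2 and Il18r1, was at most 0.00373 RPKM and so was not tested.

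Kit (Entrez Gene 16590, chromosome 5, 75574987 to 75656722) had 99.9 to 253 RPKM over the 8 libraries. It had 118 and 253 RPKM in knockout-labelled LP against 221 and 229 RPKM in Tcf7+/+ LP, and 153 and 99.9 RPKM in knockout-labelled PP against 161 and 212 RPKM in Tcf7+/+ PP. The genotype groups overlapped in LP and stood apart in PP by a narrow gap, 153 against 161 RPKM. Both LP libraries were above both PP libraries in Tcf7+/+, and the tissue groups overlapped in knockout-labelled libraries. The log2 difference was -0.38 ± 0.45 in LP (adjusted p 1) and -0.57 ± 0.45 in PP (adjusted p 0.695), with a 95% interval of -1.65 to 0.50 in PP. Mast cells are among the other cells that carry Kit, and 10 mast cell and basophil markers summed to 9.43 to 13.2 RPKM in knockout-labelled LP and 4.18 to 8.07 RPKM in Tcf7+/+ LP, against 18.6 to 18.9 RPKM in knockout-labelled PP and 0.0517 to 17.7 RPKM in Tcf7+/+ PP. Of these 10 markers 6 were below 1 RPKM in all 8 libraries, with Ms4a2 and Fcer1a at 0. Cpa3 reached 1 RPKM only in the second knockout-labelled LP library (13.1 RPKM). Mcpt2 did so only in the first knockout-labelled PP library (18.7 RPKM) and Mcpt1 only in the second (4.74 RPKM). Hdc ran from 0.0285 to 17.6 RPKM. The part of such cells in the Kit values was not tested. Ret, a tyrosine kinase receptor for glial-derived factors, had 27.5 to 125 RPKM and was the highest of the other 8 receptor tyrosine kinases listed.

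Ltbr, the lymphotoxin beta receptor (Entrez Gene 17000, chromosome 6, 125306571 to 125313885), was lowest and almost missing from 1 group. It had 12.1 and 9.29 RPKM in knockout-labelled LP and 7.89 and 4.79 RPKM in Tcf7+/+ LP. In PP it had 1.24 and 12.9 RPKM in knockout-labelled libraries against 0.0368 and 0.0431 RPKM in Tcf7+/+ libraries. The Tcf7+/+ PP values rest on an estimated 3.03 and 4.03 reads, against 101 to 1094 in the other 6 libraries, so both of them were near the limit of detection and below all others.

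On the log2(RPKM + 1) scale, which understates changes of so low a gene, the Ltbr difference was 2.42 ± 1.22 for genotype in PP (adjusted p 0.574) and 2.79 ± 1.22 for tissue in Tcf7+/+ libraries (adjusted p 0.310). With a pseudocount of 0.1 they were 4.90 and 5.48, and with 5 they were 1.07 and 1.16, and none of these passed. For genotype in PP it was 3.74 without the first knockout-labelled PP library and 1.10 without the second (adjusted p 0.381 and 0.856). Ltbr is known mainly from stromal, epithelial and myeloid cells rather than from lymphocytes. The stromal and endothelial sum was 49.4 to 64.4 RPKM in knockout-labelled LP and 28.1 to 46.6 RPKM in Tcf7+/+ LP, with the PP ranges given with Il1r1, and again only Pdgfrb and Pecam1 carried it. The 16 epithelial markers summed to 222 to 532 RPKM in knockout-labelled LP and 228 to 409 RPKM in Tcf7+/+ LP, against 675 to 791 RPKM in knockout-labelled PP and 191 to 337 RPKM in Tcf7+/+ PP. Knockout-labelled PP also had the raised mitochondrial share. The 11 myeloid markers summed to 60.7 to 119.5 RPKM in knockout-labelled LP and 10.7 to 18.1 RPKM in Tcf7+/+ LP, against 14.1 to 46.1 RPKM in knockout-labelled PP and 0.815 to 74.1 RPKM in Tcf7+/+ PP. The part of these cells and of the mitochondrial share in the Ltbr values was not tested.

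The ligands of Ltbr had the opposite order of tissues from the one their receptor showed in Tcf7+/+ libraries. Ltb, a subunit of membrane lymphotoxin, had 557 and 262 RPKM in knockout-labelled LP and 578 and 505 RPKM in Tcf7+/+ LP, against 2063 and 1890 RPKM in knockout-labelled PP and 1839 and 2248 RPKM in Tcf7+/+ PP. It fell in LP by 2.14 ± 0.24 on the log2 scale over both genotypes (adjusted p 0.000768). Lta, the other subunit, had 3.57 to 51.3 RPKM over the 4 LP libraries and 231 to 843 RPKM over the 4 PP libraries, a fall of 4.32 ± 0.66 (adjusted p 0.00460). Each call held in 14 of 15 alternatives. Of the 14 ligands of the receptors that were listed, 2 fell and 0 rose, 5 were kept for testing, and 6 reached 1 RPKM in no library.

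Over the 12 lists of other receptors and signalling genes (123 genes, 90 kept), 0 passed for genotype in either tissue, against the background shares given above, and 11 passed for the average tissue effect, 8 of them higher in LP. Of the 8 receptors listed as sharing chains with the members, 4 were kept for testing. Of these 4, Il4ra, the alpha chain for IL-4 and IL-13 that also pairs with Il2rg, was the 1 to pass. It had 391 and 264 RPKM in knockout-labelled LP and 280.2 and 187 RPKM in Tcf7+/+ LP, against 25.0 and 48.5 RPKM in knockout-labelled PP and 29.2 and 23.5 RPKM in Tcf7+/+ PP. Its LP minus PP difference of 3.12 ± 0.38 (adjusted p 0.00112) was kept in all 15 alternatives. Il2rb and Il4ra, both of which pair with Il2rg, thus rose in LP, while Il2rg itself had a log2 difference of -0.34 ± 0.23 that did not pass (adjusted p 0.443).

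For genes acting below the receptors, the counts that follow stand beside 4.33% of all genes called for average tissue. In the JAK and STAT list Stat4, the STAT of IL-12 signalling, was the 1 of 10 to pass, with 224 and 283 RPKM in knockout-labelled LP and 199.9 and 159 RPKM in Tcf7+/+ LP, against 69.2 and 22.0 RPKM in knockout-labelled PP and 57.8 and 84.3 RPKM in Tcf7+/+ PP. That is a log2 difference of 1.995 ± 0.46 (adjusted p 0.0355), kept in 4 of 15 alternatives and lost without any library but the second Tcf7+/+ PP one (adjusted p 0.0561 to 0.103). Among 12 inhibitors of JAK and STAT signalling 1 rose and 1 fell. Socs1, a feedback inhibitor of JAK kinases, had 353 to 407 RPKM over the 4 LP libraries and 80.0 to 218 RPKM over the 4 PP libraries, and rose in LP by 1.58 ± 0.29 on the log2 scale (adjusted p 0.0125, kept in 14 of 15 alternatives). Ptpn6, a phosphatase that dampens cytokine signals, fell in LP by 4.11 ± 0.78 (adjusted p 0.0150), kept in 11 of 15 alternatives. Among the losses were the fits without the first knockout-labelled PP or the first Tcf7+/+ LP library (adjusted p 0.0635 and 0.0535).

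Of 9 genes of lymphotoxin receptor signalling, Relb, the NF-kappaB subunit activated by Ltbr, was the 1 to pass, at 1.45 ± 0.31 for LP minus PP (adjusted p 0.0279). The call was kept in 8 of 15 alternatives and lost without any 1 of 6 libraries (0.0530 to 0.105). Of 13 TNF and TGF-beta receptors listed, 10 were tested. Tnfrsf9 (4-1BB) was the 1 of these 10 to pass and rose in LP by 2.25 ± 0.50 (adjusted p 0.0318), kept in 5 of 15 alternatives. That call was lost without any 1 of 7 libraries (0.0507 to 0.0958), and also after median-of-ratios rescaling. Of 11 IL-10, IL-17 and interferon receptors listed, 9 were tested. Ifngr1 was the 1 of these 9 to pass and rose by 1.01 ± 0.20 (adjusted p 0.0187), kept in 9 of 15 alternatives. Its call was lost without either knockout-labelled PP library or the second Tcf7+/+ LP library (0.0590 to 0.0709), and also after median-of-ratios rescaling. In the lists of IL-1 and IL-18 signalling and of Kit and PI3K signalling, 10 of 11 and 11 of 12 genes were kept for testing. The count was 2 of 7 for the IL-12, IL-6 and IL-27 family and 4 of 8 for receptor tyrosine kinases. These lists held no gene that passed. Their highest members were Irak2 at 191 RPKM and Myd88 at 106 RPKM, Inpp5d at 42.4 RPKM and Pik3cd at 40.7 RPKM, Il27ra at 46.8 RPKM and Il6st at 3.71 RPKM, and Ret at 62.5 RPKM and Pdgfrb at 24.5 RPKM, as means of the 8 libraries.

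For the 3 members that varied most over the 8 libraries, the genes with the most similar pattern were sought among 7291 expressed genes, as a description. Il12rb1 was most like Spns1 (Pearson r 0.968), Sdr39u1 (0.958) and Ndufab1 (0.956). Among the genes most like Ltbr were Pdp1 (0.968) and Zfp687 (0.968), and Il1r1 was most like Cdk2ap2 (0.965), Utp11 (0.951) and Papola (0.941). The 8 points share 4 groups and a lane label, so the likeness describes these libraries.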

How the data were processed

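RNA of sorted mouse LTi cells was measured in 8 libraries, 2 for each of 4 groups taken from the sample labels. Per the labels' protocols, a miRNeasy Micro kit gave the total RNA, and Smart-seq2, which amplifies cDNA by PCR, gave the libraries. Per the submitters' processing notes, reads were counted per gene with featureCounts of Subread on mm10; the sources used here give no versions, aligner or strand setting. The authors deposited log2(RPKM + 1) values, with 0.0001 written for 0. The base was checked on low values: 99.0% of 415 came within 0.02 of a whole read once log2 was undone, against 18.8% of 400 for the natural log. All 8 columns carry the same lane label. Depth was estimated from what 1 read is worth; without molecular identifiers, PCR copies count as reads.

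Of 27179 Entrez genes, 25275 were matched to RefSeq symbols and positions on GRCm38.p6, the assembly of mm10. The 10541 genes that reached 1 RPKM in 2 or more libraries went into limma 3.58.1 under R 4.3.3 (lmFit, eBayes with trend) on log2(RPKM + 1), with a pseudocount of 1. A fit of 4 group means (4 residual degrees of freedom) gave the 2-group comparisons and the interaction, and an additive fit (5 residual degrees of freedom) the average effects, which take LP and PP libraries as independent. Tests were two-sided. The fits were tested on simulated data. Other steps used Python 3 and pandas.

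The members and gene lists were chosen with earlier results of these data known. Named are all members, Tcf7, up to 4 passing genes per list or else its 2 highest by mean RPKM, and for the 3 most variable members the 3 genes with the highest Pearson r among those with a mean of at least 5 RPKM; partner chains and neighbours were named in addition. Alternatives were other pseudocounts (0.1 and 5), no filter, 2 rescalings, no trend, a replicate block, fitting only the 2 groups compared, and leaving out each library; the listed genes were added to these after seeing the data. Some items are not reported here.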

Additional observations from a re-analysis of the deposited data

How the results depend on the processing

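Il2rb kept a positive LP minus PP difference in every alternative. Of 1090 recomputed member differences 1023 kept direction and side of the threshold, 54 changed sign, none of which had passed, and 13 crossed the threshold, all of Il2rb or Il2rg in a tissue comparison. In Tcf7+/+ libraries, where 1 member passed, 0 did with no filter, without the trend, with the replicate block or with only the 2 groups compared, 2 did after median-of-ratios rescaling, and 0 to 1 when libraries were left out. Over both genotypes 0 did without the trend, and in knockout-labelled libraries 1 did after median-of-ratios rescaling.

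The number of genes passing moved more. With no filter it was 76 for genotype in PP, 56 for genotype in LP, 36 for the interaction and 282 for average tissue. After median-of-ratios rescaling it was 23 for genotype in PP. Without the trend it was 138 for genotype in PP, 0 for genotype in LP and the interaction, 127 for tissue in knockout-labelled libraries and 271 for average tissue. With only the 2 groups compared it was 0 in all 4 comparisons. A pseudocount of 0.1 gave 0 for genotype in LP, and one of 5 gave 10 for the interaction and 2 for average genotype. Leaving out 1 library gave 1 to 35 for genotype in PP, 0 to 4 for genotype in LP, 0 to 180 for tissue in Tcf7+/+, 25 to 170 for tissue in knockout-labelled libraries, 0 to 6 for the interaction, 1 to 4 for average genotype and 243 to 448 for average tissue. The cause was not tested.

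Replicate numbers share no stated source, and deviations of same-numbered libraries correlated at -0.02 to 0.01, so they were not taken as pairs. With the replicate block 16 genes passed for genotype in PP, 0 for genotype in LP, 99 for tissue in Tcf7+/+, 74 for tissue in knockout-labelled libraries and 1 for the interaction.

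Median-of-ratios rescaling turned the sign of Il23r to -0.48 for genotype in PP, of Il18r1 to 0.11 and Tcf7 to 0.15 for genotype in LP, and of Il2rg to -0.15 for average genotype. For tissue in Tcf7+/+ it gave Il7r -0.31, Il2ra -0.16, Il23r -0.18, Il18r1 -0.20 and Kit -0.052, and for tissue in knockout-labelled libraries Il7r 0.068. For the interaction it gave Il7r 0.38, Il2rb 0.29 and Il23r 0.17.

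Leaving out 1 library turned other small differences. For genotype in PP they ran from -1.12 to 0.084 (Il18r1), -0.55 to 0.062 (Il7r) and -0.31 to 0.49 (Il23r). For genotype in LP they ran from -1.29 to 0.23 (Il23r), -2.40 to 0.41 (Il12rb1), -0.93 to 0.17 (Kit), -0.40 to 0.75 (Il2ra), -0.14 to 0.48 (Il2rb), -0.45 to 0.25 (Il18r1) and -0.41 to 1.14 (Il1r1). For tissue in Tcf7+/+ they ran from -0.99 to 4.11 (Il12rb1), -0.22 to 0.48 (Il18r1), -0.27 to 0.32 (Il7r), -0.25 to 0.56 (Il23r) and -1.39 to 0.17 (Il1r1). For tissue in knockout-labelled libraries they ran from -0.062 to 1.15 (Il18r1), -0.26 to 2.38 (Ltbr), -1.22 to 0.29 (Il23r), -0.020 to 0.32 (Il2rg) and -0.072 to 1.03 (Kit). For the interaction they ran from -0.19 to 1.02 (Il18r1), -0.36 to 0.75 (Kit), -1.38 to 0.14 (Il23r) and -0.080 to 1.07 (Il2ra). For average genotype they ran from -0.35 to 0.11 (Il2ra), -0.12 to 2.41 (Il12rb1), -0.14 to 0.14 (Il2rg) and -0.46 to 0.15 (Il23r), and for average tissue from -0.40 to 0.21 (Il23r) and -2.30 to 0.23 (Il12rb1). With 2 libraries per group the median standard error of a 2-group difference was 1.24 over the 10541 genes tested. For the members it ran from 0.21 for Il2rg to 1.70 for Il12rb1. A difference that did not pass therefore does not show that a gene is unchanged.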
